A study of Mus musculus with 10 samples.

Results

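The genes described here are 38 antioxidant genes of the mouse: the transcription factor Nrf2 (gene Nfe2l2) and its regulators, and the enzymes of heme breakdown, glutathione, thioredoxin, peroxiredoxin, superoxide and NADPH metabolism that protect cells from oxidants. They were chosen by name, as known members of these systems, and fall into 8 groups by role. Earlier results of these data were known when they were chosen, so the list is not independent of the data. All 38 had a row in the gene count table, which holds 29700 gene rows without circular RNAs, and all 38 passed the filter on low counts that left 12654 genes for testing. The lowest count of any of them in any library was 15, for Me1 in a control library. Macrophages were taken from the peritoneal cavity of wild-type C57BL/6 mice aged 8 weeks after thioglycollate, an irritant that draws monocyte-derived macrophages into the cavity, and 5 control libraries were compared with 5 ox-LDL libraries. The labels give the controls as untreated. The ox-LDL cells were primed with LPS, a bacterial lipid that Toll-like receptor 4 recognizes, at 100 ng/ml and then given ox-LDL, low-density lipoprotein with oxidized lipids, at 100 µg/ml over 16 h. By the labels LPS went to the ox-LDL cells alone, although one legend of the study can be read as priming of both groups, so the effects of LPS and of ox-LDL cannot be told apart here. The replicates are called biological, and whether each came from its own mouse is not given in the sources used here.

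Nrf2 is held in the cytosol and sent for degradation by Keap1 as long as the reactive cysteines of Keap1 are unmodified. Oxidants and electrophiles modify these cysteines, Nrf2 then accumulates as a protein, pairs with a small Maf protein such as MafG or MafK and binds antioxidant response elements, where the repressor Bach1 competes for the same Maf partners. Reduced glutathione and thioredoxin supply the electrons with which peroxidases remove peroxides, and NADPH from the pentose phosphate pathway and malic enzyme keeps both reduced. Oxidized LDL carries lipid peroxides into macrophages, and LPS switches on NF-κB, of which Sod2 is a well-known target.

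Expression of the antioxidant genes was on balance higher in the ox-LDL macrophages. The median change varied between the groups of genes, a difference that was not tested. By edgeR's quasi-likelihood test with an adjusted p cutoff of 0.01, 15 of the 38 genes (39.5%) were upregulated, against 9.4% of all genes tested, and 1 gene, Txnrd2, was downregulated (2.63%), against 5.35% of all genes tested. The upregulated genes were Mafg, Sqstm1, Hmox1, Blvrb, Nqo1, Slc7a11, Gclm, Gss, Txnrd1, Srxn1, Prdx1, Prdx5, Prdx6, Sod2 and Me1. With an absolute log2 fold change above 2 as well, 12 of the 38 (31.6%) remained, all of them upregulated, against 6.71% of all genes in either direction. In 14 genes every ox-LDL library lay above every control library, which was so for 11.6% of all genes. In 3 genes, Nfe2l2, Bach1 and Txnrd2, every ox-LDL library lay below every control library, which was so for 9.11% of all genes. The median log2 fold change of the 38 genes was 0.86, with 27 above 0, whereas the median of all genes tested was 0.0966, with 56.2% above 0.

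**Figure D1:**
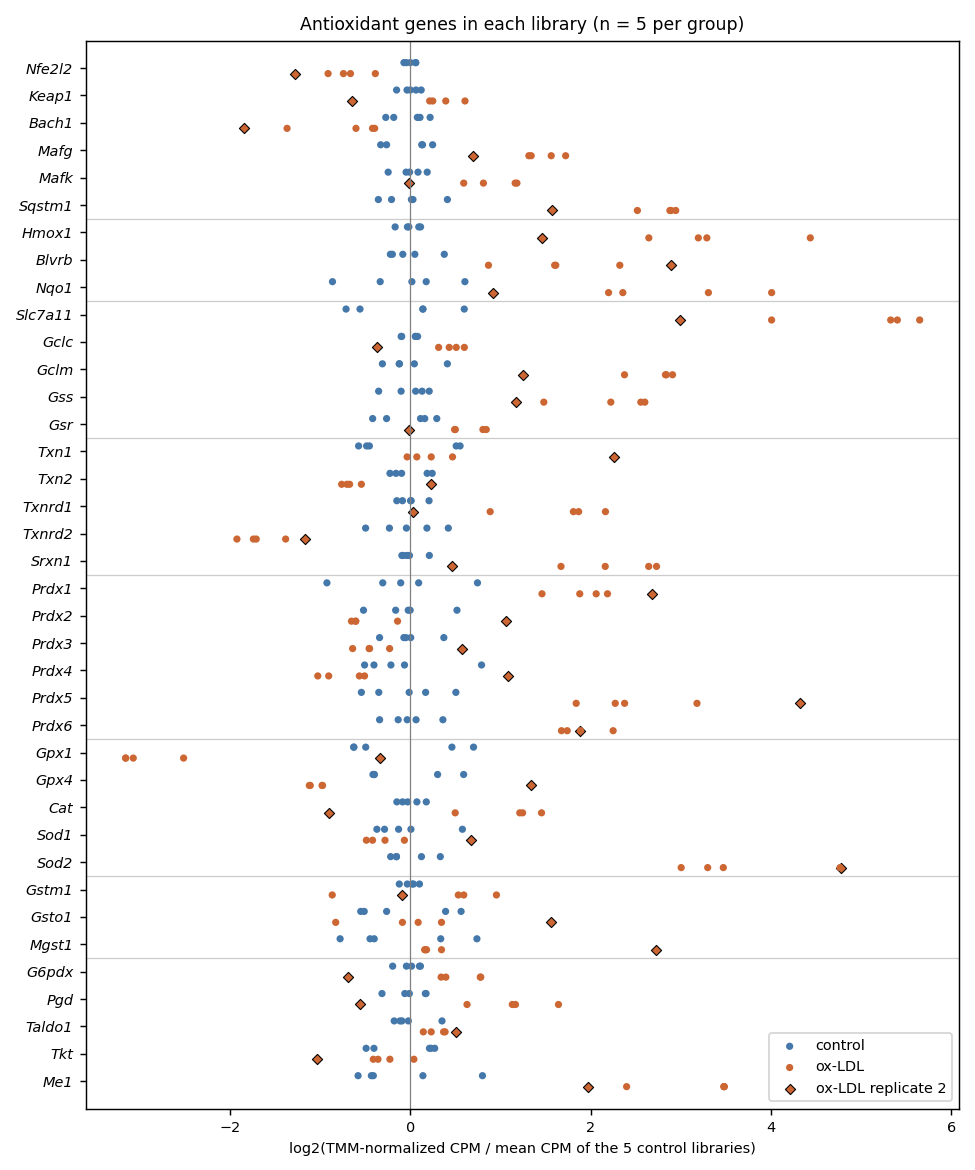
Level of each of the 38 antioxidant genes in every library as log2 of its TMM-normalized CPM over the mean of the 5 control libraries, with control libraries in blue, ox-LDL libraries in orange and ox-LDL replicate 2 as a diamond, and grey lines between the groups of genes. In 14 genes all ox-LDL points lie to the right of all control points, and in 3 (Nfe2l2, Bach1 and Txnrd2) all lie to the left.

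Library totals ran from 19257131 to 20687289 counts, and levels of single genes are given as CPM, counts scaled to a common library size after TMM normalization. Values of 5 libraries are listed in the order of replicates 1 to 5, and where a gene has a pair of such lists the controls come first. One ox-LDL library stood apart from the rest. Ox-LDL replicate 2 had a TMM factor of 0.593, against 0.837 to 1.19 in the other 9 libraries, and its expression was tilted toward short genes. The Spearman correlation across genes of gene length with the deviation of log2 CPM from the group mean was -0.646 in this library, against -0.572 and -0.463 in control replicates 1 and 4 and 0.0593 to 0.515 in the others. Without ox-LDL replicate 2, 18 antioxidant genes were upregulated (background 13.5% of the genes tested) and 5 were downregulated (background 11.6%). The 15 upregulated genes and Txnrd2 were among them, and Cat, Mafk and Pgd were added to the upregulated and Gpx1, Gpx4, Nfe2l2 and Txn2 to the downregulated genes. Without this library and control replicates 1 and 4, 16 were upregulated (background 6.51%) and 3 were downregulated (background 4.93%).

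The cells carried macrophage RNA. Cd68 was between 1168 and 2097 CPM in the controls and between 1477 and 2684 CPM in the ox-LDL libraries, and the summed level of 9 macrophage markers was 19720 to 46880 and 12500 to 47940 CPM (two-sided exact permutation test, p = 0.206, 0.476 adjusted over 8 lists). Red cell markers, which matter because Blvrb and Prdx2 are abundant in red cells, summed to at most 0.383 CPM in any library, with no library above 0.257 CPM for a hemoglobin gene. Sums of 9 neutrophil markers were 66.8 to 119 CPM in controls and 66.4 to 240.5 CPM in ox-LDL libraries (exact permutation p = 0.151, adjusted 0.476), and 1 of the 3 that could be tested, S100a8, was upregulated, from 5.39 to 14.2 CPM in the controls to 10.8 to 152 CPM with ox-LDL (edgeR adjusted p = 0.0031). Csf3r was at 36.5 to 87.8 and 31.7 to 166 CPM, and Mmp8 at 5.41 to 31.5 and 2.31 to 9.75 CPM. Cxcr2 was at 0.332 to 0.670 and 0 to 0.087 CPM and Ltf at 0.342 to 1.60 and 0 to 0.171 CPM, both lower without overlap. Camp was higher without overlap, at 0 to 0.0553 and 0.1435 to 0.956 CPM. Retnlg reached 1.78 and 1.61 CPM, and S100a9 and Ngp were at no more than 0.348 CPM. The list thus moved in both directions. The part of neutrophil RNA in the values of the antioxidant genes was not tested. Markers of eosinophils and mast cells summed to 2.95 to 13.4 CPM in the controls and 0.780 to 5.97 CPM in the ox-LDL libraries (exact permutation p = 0.0238, adjusted 0.19). B cell markers reached at most 3.131 CPM in any library (p = 0.913), T cell markers 1.09 (p = 0.349), mesothelial markers 5.01 (p = 0.976) and markers of resident peritoneal macrophages 11.8 (p = 0.516, all by the exact permutation test). In RNA from whole cultures, fewer cells of a type and less RNA per cell cannot be told apart.

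The antioxidant response element, the DNA sequence bound by Nrf2 with a small Maf protein, was looked for as its core TGACNNNGC on both strands in a window from 250 bases before to 50 bases after each gene's start. Promoter sequences of RefSeq (build GRCm38.p6) matched 34 of the 38 genes, all but Hmox1, Gclc, Gsr and Prdx6. The core was present in 12 of these 34 genes (35.3%), against 14% of all 27025 genes with a promoter entry. Counted by window, it was in 12 of the 44 windows of these genes (27.3%), against 12.4% of all 32851 windows. The AP-1 motif TGANTCA, which can overlap the core, was present in 3 of the 34 (8.82%) and in 8.97% of all genes. Of the 12 genes with the core, 6 passed the threshold in either direction (background 14.7% of all genes tested), and of the 22 without it 8 did. A match describes the letters in the window and not a bound site.

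Promoters of 4 upregulated genes that hold the core, and that of Nfe2l2 itself, are shown so that the position of the core can be compared. Each is given 5′ to 3′ on the strand of the gene from 250 bases before the start up to the start, at coordinates of the mouse build mm9 (NCBIM37) found by exact match, with the core in capitals. The core reads GCNNNGTCA where it lies on the opposite strand, as in Gclm, Prdx1, Txnrd1 and Mafg.
Gclm, chr3:121948225-121948474, plus strand: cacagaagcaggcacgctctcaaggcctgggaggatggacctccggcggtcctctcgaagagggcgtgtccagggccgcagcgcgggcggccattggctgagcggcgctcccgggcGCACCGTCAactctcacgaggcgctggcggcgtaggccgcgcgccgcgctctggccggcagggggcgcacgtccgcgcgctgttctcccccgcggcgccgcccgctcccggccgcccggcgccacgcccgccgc
Prdx1, chr4:116357954-116358203, plus strand: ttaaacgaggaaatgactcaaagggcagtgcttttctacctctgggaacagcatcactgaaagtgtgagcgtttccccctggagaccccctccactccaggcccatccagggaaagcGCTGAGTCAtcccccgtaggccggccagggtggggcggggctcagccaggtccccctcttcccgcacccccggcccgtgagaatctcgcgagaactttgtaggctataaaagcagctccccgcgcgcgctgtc
Txnrd1, chr10:82321701-82321950, plus strand: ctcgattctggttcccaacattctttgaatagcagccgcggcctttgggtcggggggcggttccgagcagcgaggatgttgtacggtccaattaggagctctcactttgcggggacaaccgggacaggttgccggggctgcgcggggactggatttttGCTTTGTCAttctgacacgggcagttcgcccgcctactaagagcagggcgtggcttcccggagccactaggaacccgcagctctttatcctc
Mafg, chr11:120494862-120495111, minus strand: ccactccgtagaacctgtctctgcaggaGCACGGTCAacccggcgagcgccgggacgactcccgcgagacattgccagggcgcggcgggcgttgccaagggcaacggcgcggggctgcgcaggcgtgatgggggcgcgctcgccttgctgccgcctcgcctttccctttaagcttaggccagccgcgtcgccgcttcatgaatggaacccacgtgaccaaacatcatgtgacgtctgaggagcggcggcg
Nfe2l2, chr2:75542721-75542970, minus strand: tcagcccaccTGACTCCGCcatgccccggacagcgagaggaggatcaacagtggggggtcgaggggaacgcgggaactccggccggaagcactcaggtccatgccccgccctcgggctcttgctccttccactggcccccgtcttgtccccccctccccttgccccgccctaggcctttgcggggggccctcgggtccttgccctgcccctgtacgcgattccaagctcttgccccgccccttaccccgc
The core lay 134 to 126 bases before the start in Gclm, 133 to 125 in Prdx1, 92 to 84 in Txnrd1, 222 to 214 in Mafg and 240 to 232 in Nfe2l2. The Txnrd1 start used here lies inside the mm9 span of the gene (chr10:82296696-82360469) and not at its first base. Of these 5 genes the first 4 were upregulated, and Nfe2l2 was not.

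In a further pair of upregulated genes the core lay at or just after the start, and it is shown with the bases around it because a window that ended at the start would miss it.
Srxn1: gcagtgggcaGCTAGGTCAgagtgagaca
Me1: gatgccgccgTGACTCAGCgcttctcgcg
In Srxn1 (mm9 chr2:151931252-151937112, plus strand) the core was on the opposite strand at bases 29 to 37 after the start, and in Me1 (mm9 chr9:86474970-86589947, minus strand) on the gene's own strand from base -6 to base 3. The remaining genes with the core were G6pdx, Mafk, Mgst1, Pgd and Sod1, none of which passed the threshold.

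Among the regulators, Mafg and Sqstm1 were upregulated, whereas Nfe2l2 and Bach1 lay below the controls without passing the threshold. Nfe2l2 (NCBI Gene 18024, mm9 chr2:75513570-75542698), which encodes Nrf2 itself, was at 214, 222, 203, 207 and 222 CPM in the controls and 113, 87.8, 128, 135 and 163 CPM in the ox-LDL libraries. The groups did not overlap and every ox-LDL library was lower, but at a log2 fold change of -0.77 ± 0.19 (SE) the gene narrowly missed the threshold (edgeR quasi-likelihood test, adjusted p = 0.0111). Without ox-LDL replicate 2 the log2 fold change was -0.71 and the gene passed (edgeR, adjusted p = 0.00337), as it did in 8 of 25 alternative analyses. Bach1, the repressor of heme-regulated antioxidant genes, was at 42.9, 54.6, 55.8, 45.6 and 60.3 CPM in the controls and 34.1, 14.4, 38.7, 39.4 and 20.1 CPM in the ox-LDL libraries, again with no overlap and with ox-LDL lower (log2 fold change -0.82 ± 0.27, edgeR adjusted p = 0.0423). Neither the activator nor the repressor passed the threshold. Lying wholly below the controls was no more frequent among the 38 genes, at 3 of them, than among all genes tested, at 9.11%. Keap1, the adaptor that targets Nrf2 for ubiquitination, was at 25.3, 27.1, 25.9, 23.3 and 28.2 CPM and 34.0, 16.6, 30.1, 30.8 and 39.5 CPM, and ox-LDL replicate 2 was the lowest of all 10 libraries while the other 4 ox-LDL libraries were above every control (log2 fold change 0.22 ± 0.21, edgeR adjusted p = 0.481).

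The small Maf genes had higher values. Mafg, a partner of both Nrf2 and Bach1, was upregulated from 25.1, 34.4, 34.6, 26.2 and 37.4 CPM to 78.3, 51.0, 93.0, 104 and 79.7 CPM, a log2 fold change of 1.36 ± 0.21 (edgeR quasi-likelihood test, adjusted p = 0.000718). The groups did not overlap. For Mafk the values were 12.4, 14.7, 14.3, 15.7 and 16.8 CPM in the controls and 22.3, 14.6, 25.9, 33.1 and 33.5 CPM with ox-LDL, and replicate 2 alone lay among the controls (log2 fold change 0.81 ± 0.23, edgeR adjusted p = 0.0203, and 0.92 with adjusted p = 0.00124 without that library). Sqstm1 encodes p62, a receptor for selective autophagy that binds Keap1 and diverts it from Nrf2. It was at 173, 226, 224, 192 and 295 CPM in the controls and 1271, 657, 1632, 1648 and 1707 CPM in the ox-LDL libraries, a fold change of 6.23 (log2 2.64 ± 0.31, edgeR adjusted p = 0.000105). Its lowest ox-LDL library was above its highest control. Sqstm1 and 3010026O09Rik overlap on opposite strands, as do Keap1 and Gm16754, and Mafk and Tmem184a, whereas Mafg overlaps Sirt7 on the same strand. How strand was treated in counting is not given in the sources used here.

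All 3 genes of heme breakdown and quinone reduction were upregulated, with a median log2 fold change of 2.91. Hmox1 (mm9 chr8:77617490-77624495), the inducible heme oxygenase that opens heme to biliverdin, carbon monoxide and iron, was at 283, 258, 255, 232 and 279 CPM in the controls and 1635, 721, 2554, 2392 and 5659 CPM in the ox-LDL libraries. The controls were close to each other, whereas the ox-LDL libraries ran from 721 CPM in replicate 2 to 5659 CPM in replicate 5, all above the controls. The log2 fold change was 3.31 ± 0.47, a 9.91-fold increase (edgeR quasi-likelihood test, adjusted p = 0.000394). Blvrb, biliverdin reductase B, was at 364, 244, 265, 290.5 and 241 CPM and 512, 2085, 859, 851 and 1405 CPM, with no overlap and with its highest value in ox-LDL replicate 2 (log2 fold change 2.02 ± 0.36, edgeR adjusted p = 0.00159). Nqo1, the NAD(P)H quinone dehydrogenase that is the classical Nrf2 target, was scarce, at 2.77, 2.05, 1.84, 1.44 and 0.999 CPM in the controls and 8.35, 3.42, 29.3, 17.99 and 9.32 CPM with ox-LDL. It was nevertheless upregulated 7.53-fold (log2 2.91 ± 0.52, edgeR adjusted p = 0.00155), from 23 to 50 counts in the control libraries to 40 to 600 counts in the ox-LDL libraries.

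Among the genes of glutathione supply, those for cystine uptake, for the modifier subunit of the first enzyme and for the second enzyme were upregulated. Slc7a11 (mm9 chr3:50168858-50247535), the cystine/glutamate exchanger that brings in the cysteine precursor, had the highest fold change of the 38 genes, 31.3-fold (log2 4.97 ± 0.53, edgeR quasi-likelihood test, adjusted p = 6.16e-05). It was at 4.81, 8.69, 11.9, 5.36 and 8.69 CPM in the controls and 127, 62.5, 396, 334 and 317 CPM in the ox-LDL libraries. The lowest ox-LDL library, replicate 2, was still above the highest control. The catalytic subunit of glutamate-cysteine ligase, Gclc, was at 20.2, 22.4, 22.5, 22.8 and 20.1 CPM and 29.1, 16.7, 32.7, 30.7 and 26.8 CPM, a log2 fold change of 0.33 ± 0.19 that did not pass (edgeR adjusted p = 0.214), with 4 ox-LDL libraries above and replicate 2 below the controls. Its modifier subunit Gclm (mm9 chr3:121948475-121972902) was at 40.8, 31.7, 28.2, 24.8 and 28.2 CPM and 159, 73.0, 219.8, 218 and 231 CPM, and all ox-LDL libraries were higher (5.86-fold, log2 2.55 ± 0.31, edgeR adjusted p = 0.00013). Gss, glutathione synthetase, was at 14.4, 15.1, 16.0, 10.8 and 12.9 CPM and 38.5, 31.1, 83.8, 81.2 and 64.5 CPM, again without overlap (log2 fold change 2.11 ± 0.28, edgeR adjusted p = 0.000276). Gsr, the reductase that recycles oxidized glutathione, was at 73.9, 49.5, 55.1, 71.5 and 81.1 CPM and 116, 65.3, 93.5, 93.0 and 119 CPM, with overlapping groups and no call (log2 fold change 0.55 ± 0.21, edgeR adjusted p = 0.0749). Gss overlaps Acss2 and Gclm overlaps Gm17494, each on the opposite strand.

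In the thioredoxin system the reductases of cytosol and mitochondria went opposite ways. Txnrd2 (mm9 chr16:18426510-18479166), the mitochondrial thioredoxin reductase, was the single downregulated gene, at 63.3, 47.4, 39.5, 74.6 and 54.0 CPM in the controls and 21.4, 24.8, 14.7, 17.0 and 16.7 CPM with ox-LDL (2.95-fold lower, log2 fold change -1.56 ± 0.22, edgeR quasi-likelihood test, adjusted p = 0.000336). No ox-LDL library reached the lowest control. Txnrd1, the cytosolic reductase, was upregulated from 80.4, 89.4, 89.8, 84.0 and 103 CPM to 165, 90.8, 312, 325 and 399.9 CPM (log2 fold change 1.53 ± 0.34, edgeR adjusted p = 0.00633). Here ox-LDL replicate 2 lay inside the control range and the other 4 were above it, and the call was lost in 14 of 25 alternative analyses, with adjusted p values up to 0.196. Srxn1, the sulfiredoxin that repairs hyperoxidized peroxiredoxins, was at 136, 114, 111, 116 and 109.7 CPM and 373, 162, 777, 732 and 524 CPM, with every ox-LDL library higher (4.38-fold, log2 2.13 ± 0.37, edgeR adjusted p = 0.0013).

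The thioredoxins themselves did not pass. Txn1, the cytosolic form, was at 1322, 624, 664, 1362 and 678 CPM and 906, 4463, 1091, 977 and 1285 CPM, and its log2 fold change of 0.91 ± 0.48 (edgeR adjusted p = 0.19) varied with the libraries used. It was 0.15 (adjusted p = 0.692) without ox-LDL replicate 2, 0.66 (adjusted p = 0.0267) without control replicates 1 and 4 as well, and 0.83 (adjusted p = 0.00923) with the length trend of each library removed, the single alternative in which it passed. Txn2, the mitochondrial form, was at 136, 103, 108, 131 and 98.6 CPM and 79.2, 136, 68.0, 70.8 and 72.3 CPM. In this gene 4 ox-LDL libraries were below every control and replicate 2 was among the highest, with a log2 fold change of -0.44 ± 0.23 (edgeR adjusted p = 0.171) that became -0.71 (adjusted p = 0.00358) without replicate 2.

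Peroxiredoxins, the abundant thiol peroxidases, split into 3 that were upregulated and 3 that did not pass the test. Prdx1 was at 9651, 5348, 6139, 4658 and 3032 CPM in the controls and 15850, 36920, 26230, 21190 and 24040 CPM in the ox-LDL libraries, a 4.31-fold increase with no overlap (log2 2.11 ± 0.38, edgeR quasi-likelihood test, adjusted p = 0.00164). Per length it was the most highly expressed of the 38 genes in both groups, at a mean of 4688 and 17410 FPKM. Prdx5, found in mitochondria, peroxisomes and cytosol, was at 397, 219.6, 192, 315 and 277 CPM and 1002, 5592, 1454, 1353 and 2537 CPM (8.52-fold, log2 3.09 ± 0.49, edgeR adjusted p = 0.000722). Its value in replicate 2 was the highest and without that library the log2 fold change was 2.46 (adjusted p = 0.000115). Prdx6, which uses glutathione and also cleaves phospholipids, was at 129, 91.2, 105, 97.8 and 79.1 CPM and 320.3, 369.5, 371, 335 and 477 CPM, and its ox-LDL libraries were close to each other (log2 fold change 1.90 ± 0.21, edgeR adjusted p = 6.82e-05).

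The cytosolic Prdx2 was at 359.9, 247, 225, 251 and 175 CPM and 228, 526, 165, 165 and 159.9 CPM, the mitochondrial Prdx3 at 132, 98.6, 97.1, 102 and 80.6 CPM and 87.0, 151, 74.6, 65.5 and 74.4 CPM, and the endoplasmic reticulum form Prdx4 at 159, 79.2, 69.5, 87.9 and 64.6 CPM and 64.6, 195, 49.1, 45.1 and 62.1 CPM. In each of these the highest ox-LDL library was replicate 2, and the groups overlapped. Their log2 fold changes were -0.02 ± 0.36, -0.17 ± 0.25 and -0.15 ± 0.42 (edgeR adjusted p = 0.979, 0.651 and 0.837). Prdx2 overlaps Rnaseh2a and Prdx5 overlaps Trmt112 on the opposite strand, and similar copies within the peroxiredoxin family could share reads.

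Among superoxide dismutases, glutathione peroxidases and catalase, the mitochondrial Sod2 alone passed. Sod2 (mm9 chr17:13200705-13210985), the manganese superoxide dismutase, was at 141, 101, 101, 122 and 96.5 CPM in the controls and 901, 3082, 1246, 1105 and 3058 CPM in the ox-LDL libraries, a 16.7-fold increase (log2 4.06 ± 0.42, edgeR quasi-likelihood test, adjusted p = 4.98e-05). No ox-LDL library came near the controls, and replicates 2 and 5 were the highest. The cytosolic Sod1 was at 293, 198, 179.6, 161 and 152 CPM and 188, 313, 162, 140.2 and 147 CPM, with overlapping groups (log2 fold change -0.05 ± 0.27, edgeR adjusted p = 0.915).

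Gpx1, the cytosolic selenium-dependent glutathione peroxidase, was at 1854, 955, 872, 2189 and 871 CPM in the controls and 236, 1066, 151, 159.9 and 151 CPM with ox-LDL. The 4 ox-LDL libraries other than replicate 2 were all below the lowest control, and replicate 2 was inside the control range. The log2 fold change was -1.94 ± 0.60 and did not pass (edgeR adjusted p = 0.0335), and without replicate 2 it was -3.00 (adjusted p = 8.61e-05), one of 9 of 25 alternative analyses in which it passed. Gpx4, the peroxidase that reduces phospholipid hydroperoxides in membranes, was at 1155, 581, 575, 946 and 581 CPM and 390.1, 1938, 355, 353 and 389 CPM, with the same arrangement of libraries except that replicate 2 was the highest of all 10. Its log2 fold change was -0.16 ± 0.51 (edgeR adjusted p = 0.85), and -1.09 (adjusted p = 0.0049) without that library. Gpx1 also passed with all 10 libraries in DESeq2, with library size alone, with the length trend removed and in limma on FPKM, whereas Gpx4 passed only without ox-LDL replicate 2, alone or with control replicates 1 and 4. Cat, the catalase of peroxisomes, was at 136, 127, 118, 114 and 109 CPM and 330.4, 64.4, 286, 279.5 and 170.1 CPM, with 4 ox-LDL libraries above the controls and replicate 2 below them (log2 fold change 0.91 ± 0.35, edgeR adjusted p = 0.0787, and 1.10 with adjusted p = 0.000971 without replicate 2).

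None of the 3 glutathione transferases passed in edgeR with all libraries or in limma-voom, 0 of the 3 had an unadjusted p below 0.05 in edgeR, and in DESeq2 Gstm1 and Gsto1 did not pass and Mgst1 got no adjusted p. Gstm1 was at 328, 297, 316, 331 and 347 CPM and 627, 304, 468, 488 and 177 CPM (log2 fold change 0.35 ± 0.30), and reads of its close relatives in the same cluster could have been counted with its own. Gsto1, the omega-class enzyme, was at 187, 88.6, 86.3, 166 and 105 CPM and 161, 372, 134, 119 and 71.2 CPM (0.44 ± 0.41), and Mgst1, the microsomal enzyme, at 421, 185, 147, 319 and 191 CPM and 321, 1675, 284, 282 and 286 CPM (1.17 ± 0.56). The groups overlapped in each, and the adjusted p values of edgeR's quasi-likelihood test were 0.423, 0.469 and 0.143. The 5 ox-LDL libraries of Mgst1 held 4 values from 281.8 to 321 CPM and one of 1675 CPM in replicate 2, without which its log2 fold change was 0.17. Without control replicates 1 and 4 as well it was 0.70 (edgeR adjusted p = 0.0132), and with the length trend removed it was 1.00 and passed (adjusted p = 0.00724). Gsto1 overlaps Wdr96 on the opposite strand.

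Of the sources of NADPH, cytosolic malic enzyme passed and the pentose phosphate enzymes did not. Me1 was scarce in controls, at 1.27, 0.856, 2.01, 0.773 and 0.869 CPM, and at 12.9, 4.54, 12.9, 12.9 and 6.09 CPM with ox-LDL, 8.50-fold higher without overlap (log2 3.09 ± 0.40, edgeR quasi-likelihood test, adjusted p = 0.0002). It rested on 15 to 47 counts per control library and 53 to 296 per ox-LDL library. Pgd, 6-phosphogluconate dehydrogenase, was at 269.6, 317, 316, 226 and 279 CPM and 435, 190.5, 616, 631 and 879 CPM, 4 ox-LDL libraries above and replicate 2 below the controls (log2 fold change 0.97 ± 0.34, edgeR adjusted p = 0.0545, and 1.15 with adjusted p = 0.0013 without replicate 2). G6pdx, the X-linked enzyme that opens the pathway, was at 151, 157, 168, 136 and 167 CPM and 268, 96.5, 198, 205 and 267 CPM, arranged in the same way (log2 fold change 0.41 ± 0.26, edgeR adjusted p = 0.271). The non-oxidative enzymes Taldo1, transaldolase, and Tkt, transketolase, were at 569.8, 412, 394, 419 and 439.9 and 422, 427, 439, 275 and 259 CPM in the controls and at 494, 636, 577, 524 and 584 and 374, 177, 274, 311 and 284 CPM with ox-LDL. Both overlapped between groups, with log2 fold changes of 0.33 ± 0.20 and -0.36 ± 0.25 (edgeR adjusted p = 0.241 and 0.324). G6pdx overlaps Ikbkg and Me1 overlaps A330041J22Rik on the opposite strand.

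**Figure D2:**
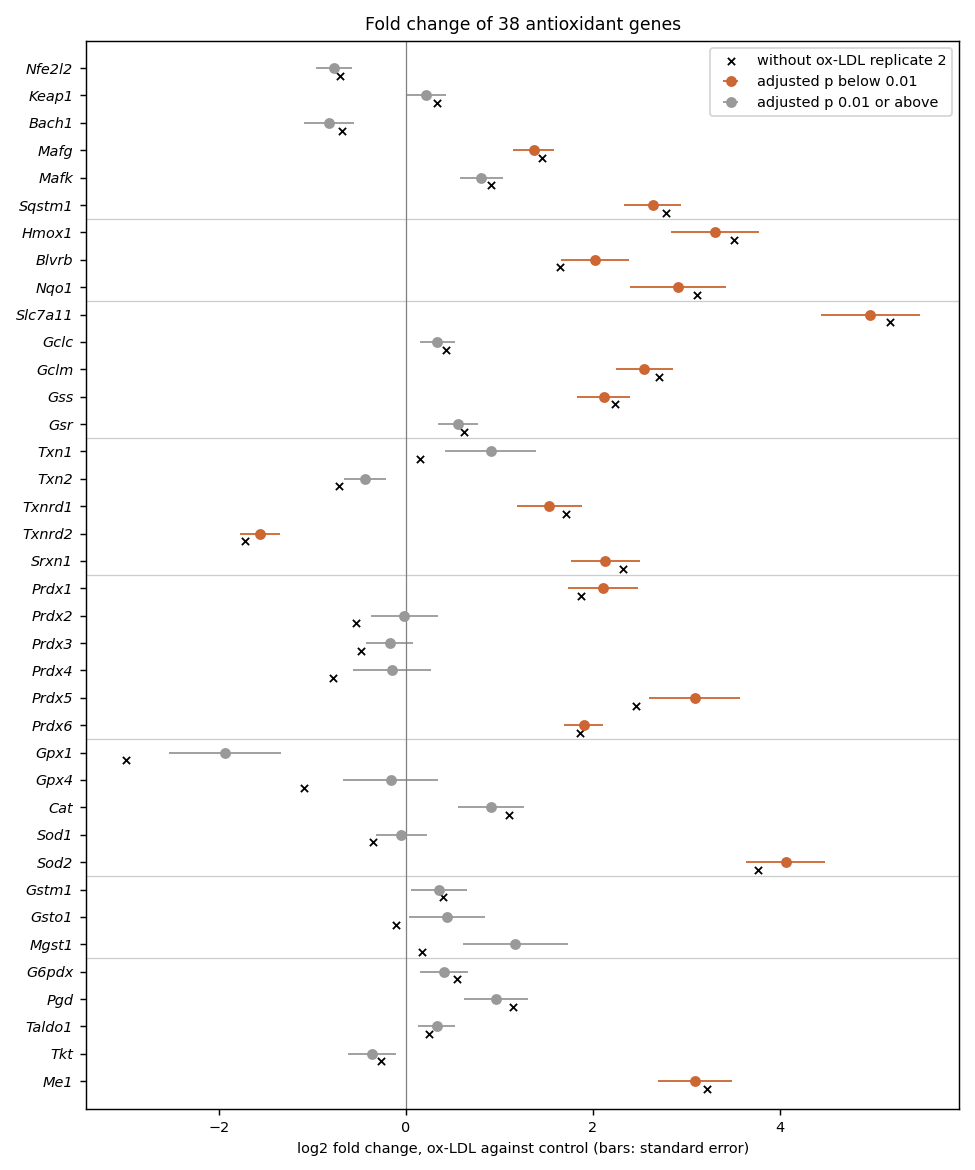
Log2 fold change of ox-LDL against control for each of the 38 genes with its standard error, orange where the adjusted p was below 0.01 and grey otherwise, and a cross for the value without ox-LDL replicate 2. Values run from -1.94 for Gpx1 to 4.97 for Slc7a11, and leaving out that library moved the crosses of Gpx1, Gpx4, Txn1 and Mgst1 furthest from their points.

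The members that passed were counted in each group of genes, where 9.4% of all genes tested were upregulated and 5.35% downregulated. The groups held only 3 to 6 genes each, and differences between them were not tested. In several of the short genes that did not pass, ox-LDL replicate 2 lay far from the other ox-LDL libraries. Upregulated were 2 of 6 regulators (median log2 fold change 0.51), 3 of 3 genes of heme and quinones (2.91), 3 of 5 of glutathione synthesis and recycling (2.11), 2 of 5 of the thioredoxin system (0.91, with Txnrd2 downregulated), 3 of 6 peroxiredoxins (0.94), 1 of 5 peroxidases and superoxide dismutases (-0.05), 0 of 3 glutathione transferases (0.44) and 1 of 5 NADPH genes (0.41). Per length, the most abundant transcripts of the 38 in control cells were Prdx1, Gpx1, Txn1 and Gpx4, at means of 4688, 1515, 1042 and 958 FPKM. In ox-LDL cells they were Prdx1, Prdx5, Hmox1 and Txn1, at means of 17410, 3437, 1725 and 1520 FPKM.

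Ratios between related genes within one library compare their levels per length, since both are FPKM of the same library. The ratio of Sod2 to Sod1 was 0.0695, 0.0731, 0.0807, 0.109 and 0.0920 in the controls and 0.677, 1.41, 1.10, 1.14 and 2.93 in the ox-LDL libraries, so that the mitochondrial transcript went from far below the cytosolic one to near or above it, a difference in mean log2 ratio of 3.94. For thioredoxin reductase the direction was the opposite. Txnrd2 over Txnrd1 was 1.48, 0.990, 0.831, 1.67 and 0.986 in the controls and 0.244, 0.505, 0.0880, 0.0969 and 0.0785 in the ox-LDL libraries, a log2 difference of -2.92. Likewise Prdx3 over Prdx1 went from 0.0134, 0.0180, 0.0155, 0.0215 and 0.0260 to 0.00537, 0.00401, 0.00278, 0.00302 and 0.00303, a log2 difference of -2.38. Txn2 over Txn1 was 0.0826, 0.132, 0.130, 0.0772 and 0.116 and 0.0697, 0.0243, 0.0497, 0.0580 and 0.0449, a log2 difference of -1.17. The mitochondrial partner was thus lower relative to the cytosolic one in 3 of the 4 pairs and higher in the pair of dismutases. In glutamate-cysteine ligase, the modifier subunit over the catalytic one, Gclm over Gclc, went from 2.99, 2.01, 1.78, 1.59 and 2.10 to 7.42, 6.55, 9.80, 9.84 and 12.5, a log2 difference of 2.14. The ratios did not overlap between the groups in any of the 5 pairs, and they are given as a description without a test. They do not remove a library's tilt toward short genes where the paired genes differ in length. Txnrd2 (1707 bases) over Txnrd1 (3206 bases) was highest in control replicates 1 and 4 and in ox-LDL replicate 2, the libraries with that tilt. Txn2 (1138 bases) over Txn1 (908 bases) was lowest of each group in the same libraries.

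**Figure D3:**
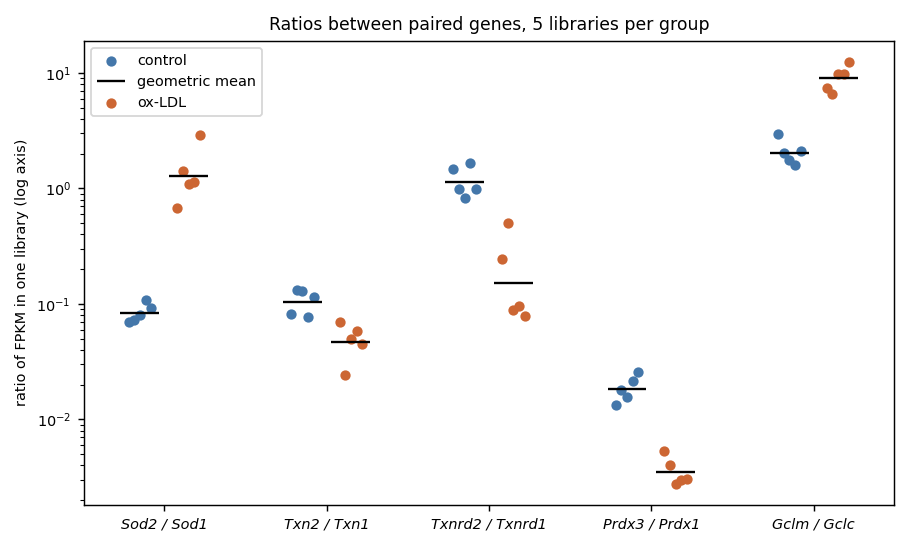
Ratio of the FPKM of paired genes within each library on a log axis, mitochondrial over cytosolic for the first 4 pairs and modifier over catalytic subunit for Gclm over Gclc, with a line at the geometric mean of 5 libraries. Control points (blue) and ox-LDL points (orange) do not overlap in any pair, and Sod2 over Sod1 and Gclm over Gclc are the pairs that are higher with ox-LDL.

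How far ox-LDL replicate 2 lay from the other ox-LDL libraries followed the length of the gene. Of the 17 antioxidant genes with a length under 1500 bases, 14 were higher in replicate 2 than the mean of the other 4 ox-LDL libraries, with a median log2 difference of 1.20. Of the 21 longer genes, 19 were lower in it, with a median of -1.10. Across the 38 genes the Spearman correlation of this difference with length was -0.686, a description over genes that share one library. The small peroxidases Gpx1 and Gpx4 and the transferase Mgst1 were the most raised, by 2.61, 2.38 and 2.51 on the log2 scale, whereas Slc7a11, Nqo1 and Hmox1 were the most lowered. Sod2 and Txnrd2, among the longer genes, were higher in replicate 2 by 0.97 and 0.49 on the log2 scale, and Gstm1, Hmox1 and Nqo1, among the shorter ones, were lower. When the length trend of every library was removed, 18 of the 38 genes were upregulated, against 13% of all genes, and 4 were downregulated, against 9.74% of all genes.

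**Figure D4:**
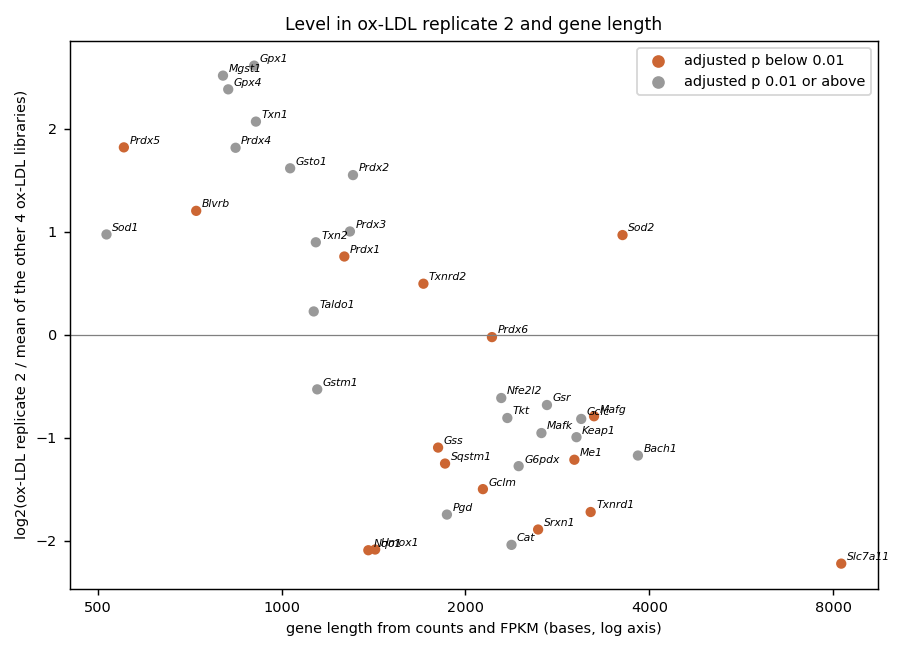
Log2 of the CPM in ox-LDL replicate 2 over the mean of the other 4 ox-LDL libraries (vertical axis) against gene length in bases on a log axis, for the 38 genes, orange where the adjusted p was below 0.01. Genes under 1500 bases lie mostly above 0 and longer genes mostly below, with Gstm1, Hmox1, Nqo1, Sod2 and Txnrd2 as the exceptions.

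Beyond the 38 genes, 91 further genes of the same systems were listed, of which 85 passed the filter on low counts, and these moved in both directions. Of the 85, 15 were upregulated (17.6%) and 11 were downregulated (12.9%), against 9.4% and 5.35% of all genes tested, with a median log2 fold change of 0.06. The highest was Ptges, the glutathione-dependent prostaglandin E synthase, at 2.27, 1.63, 3.08, 2.47 and 6.08 CPM in the controls and 68.2, 105, 300.2, 287 and 767 CPM with ox-LDL (98.0-fold, log2 6.62 ± 0.74, edgeR quasi-likelihood test, adjusted p = 8.07e-05). It was followed by Ggct, which breaks down gamma-glutamyl peptides (2.88 ± 0.52, edgeR adjusted p = 0.00173), Maff, the third small Maf gene (2.71 ± 0.26, adjusted p = 3.19e-05), and the transferase Gsta3 (2.62 ± 0.56, adjusted p = 0.005). Groups did not overlap for Ptges, Ggct and Maff, whereas Gsta3 overlapped between the groups and lost its call in 11 of 25 alternative analyses.

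The 4 lowest were Sesn1, Msrb2, Gpx3 and Hpgds. Sesn1, a sestrin that links oxidant stress to growth control, was at 193, 90.6, 86.6, 109.7 and 62.3 CPM in the controls and 14.7, 6.16, 7.36, 6.51 and 3.70 CPM with ox-LDL, 14.0-fold lower (log2 fold change -3.81 ± 0.41, edgeR quasi-likelihood test, adjusted p = 6.95e-05). Msrb2, a mitochondrial methionine sulfoxide reductase, had a log2 fold change of -3.74 ± 0.62 (edgeR adjusted p = 0.000988), and Gpx3, the secreted glutathione peroxidase, one of -3.56 ± 0.58 (adjusted p = 0.000886). Hpgds, the glutathione-dependent prostaglandin D synthase, was at 174, 128, 127, 188 and 88.6 CPM and 34.2, 31.0, 11.4, 10.1 and 1.67 CPM (-3.00 ± 0.61, edgeR adjusted p = 0.00381). In all 4 every ox-LDL library was below every control, and Hpgds lost its call in 5 of 25 alternative analyses and Msrb2 in 1 of 24, with adjusted p values up to 0.0227 and 0.0142. Mast cells and eosinophils also express Hpgds. The eosinophil marker Siglecf was at 2.18 to 7.30 CPM in the controls and 0.239 to 0.856 CPM in the ox-LDL libraries. Other eosinophil markers did not follow it. Ccr3 overlapped, at 0.0856 to 0.652 and 0 to 0.657 CPM, and Prg2 was at 0 and 0 to 0.12 CPM. Of the mast cell markers, Cpa3 was at 0.342 to 3.65 and 0.0975 to 1.73 CPM and Cma1 at 0.257 to 3.00 and 0.0975 to 1.37 CPM. Tpsb2 was at 0.0856 to 2.82 and 0.0975 to 1.61 CPM and Kit at no more than 0.261 CPM. Their part in the Hpgds values was not tested.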

How the data were processed

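RNA of peritoneal macrophages was sequenced on the BGISEQ-500 platform in 5 control and 5 ox-LDL libraries, grouped by the sample labels. The submitters' processing notes name FastQC, HISAT2 2.0.5, SAMtools 1.4, StringTie 1.3.3.13 and the mouse build mm9, and the counting step and its use of strand are not given in the sources used here. The authors deposited estimated counts per gene, of which 13.6% of values were not whole numbers, and these were rounded. The authors also deposited length-scaled values with no named unit, which were treated as FPKM. The gene lengths that they imply with the counts agreed between libraries. The median ratio of the highest to the lowest implied length of a gene was 1.03 over 4509 genes. These lengths were not compared with annotated ones.

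Of 39488 rows, 9788 circular RNAs were left out. The others were 23382 NCBI gene identifiers, 22818 of them with a symbol in a RefSeq table of GRCm38.p6, and 6318 without a symbol. Counts were filtered with filterByExpr, TMM-normalized and tested with edgeR 4.0.16 (quasi-likelihood, robust) in R 4.3.3 with Benjamini-Hochberg adjustment over 12654 genes at 0.01, the study's false discovery cutoff. DESeq2 1.42.0, limma-voom and limma 3.58.1 on log2(FPKM + 1), other normalizations, filters and thresholds, removal of each library's trend on gene length, the replicate number as a block and each library left out were alternatives, and leaving out 3 libraries was chosen after the data were seen. On simulated data with 200 changed genes among 12654, edgeR recovered 190 with 2 false calls, and DESeq2 recovered 189 with 6. The simulated libraries had less spread between replicates than the real ones and no tilt toward short genes. The changed genes were drawn from those above a minimum level. These counts check the fits and do not give the recovery or the false calls in the real data. No 2 libraries of a group agreed within sampling noise.

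The members, gene lists and marker lists were chosen with earlier results of these data known. All 38 members are named, and of 91 further pathway genes the 4 highest and 4 lowest that passed. Marker lists covered macrophages, resident peritoneal macrophages, neutrophils, B cells, T cells, mesothelial cells, eosinophils and mast cells, and red cells. Standard errors and p-values cover the spread between these libraries. Summed levels were compared by two-sided exact permutation tests, whose smallest p is 0.00794.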

Additional observations from a re-analysis of the deposited data

Results flagged for a closer look

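For the 38 genes and the 5 ratios the values of each group were examined for one library far from the others, by the gap from the highest or lowest library to its neighbour as a share of the whole range, with 0.71 as the limit for 5 libraries. Of 86 groups of 5 libraries, 12 passed this limit, where chance would give about 1 in 20, or 4.3. In 9 of the 12 the distant library was ox-LDL replicate 2, as the highest value. The shares were 0.976 for Gpx4, 0.972 for Mgst1, 0.908 for Gpx1, 0.894 for Txn1, 0.87 for Prdx4, 0.835 for Txn2, 0.814 for Prdx2, 0.749 for Prdx3 and 0.724 for Sod1. All 9 genes were shorter than 1500 bases and none of them passed the threshold over all 10 libraries. In the other 3 the distant library was control replicate 1, again as the highest value, with shares of 0.754 for Prdx4, 0.744 for Srxn1 and 0.741 for Taldo1. The part of RNA quality, library preparation or the cells in these values was not tested.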

How the results depend on the processing

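Of the 16 antioxidant genes that passed, 9 kept an adjusted p below 0.01 in every alternative fit (Sqstm1, Hmox1, Slc7a11, Gclm, Txnrd2, Prdx1, Prdx5, Prdx6 and Sod2), and the added cutoff on the fold change removed Mafg, Txnrd1, Txnrd2 and Prdx6. Txnrd1 lost its call in 14 alternatives, Mafg in 4, Nqo1 and Srxn1 in 3 each and Blvrb, Gss and Me1 in 1 each. None of the 16 changed sign. Of the 22 that did not pass, 10 passed in some alternative.

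Upregulated and downregulated antioxidant genes numbered 15 and 1, against 1189 and 677 of all genes and 15 and 11 of the further pathway genes. At an adjusted p below 0.05 the antioxidant genes numbered 16 and 4 and all genes 2045 and 1320. With an absolute log2 fold change above 2 they were 12 and 0, all genes 605 and 244, and further genes 7 and 6. With library size alone they were 13 and 2, all genes 704 and 583, and further upregulated genes 9. With upper-quartile normalization there were 15 and 2 antioxidant genes, against 7.55% and 6.39% of all genes tested. With limma-voom there were 14 and 2, against 9% and 6.26%. With at least 10 counts in every library there were 15 and 2, against 8.65% and 4.88%. With DESeq2 there were 16 and 4 antioxidant genes, against 1765 and 1244 of all genes (13.9% and 9.83%). With no filter beyond 1 count, 9 further genes were upregulated. With the length trend removed there were 18 and 4 antioxidant genes, against 1641 and 1233 of all genes. With a replicate block as well there were 16 and 4, against 1538 and 1234. With limma on log2(FPKM + 1) the antioxidant genes were 10 and 2, all genes 555 and 750, so that downregulated genes outnumbered upregulated ones, and 7 further genes were upregulated. With a pseudocount of 0.1 these were 10 and 2, 543 and 700, and 7, and without the filter on FPKM 9 and 2, 472 and 555, and 6. The median log2 fold change of all genes was 0.0966 here, -0.0484 with upper quartiles, -0.0920 with library size alone and -0.136 with limma on FPKM, where that of the antioxidant genes was 0.86, 0.70, 0.61 and 0.49. The causes of these differences were not tested.

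Leaving out one library gave 1 to 5 downregulated antioxidant genes, 436 to 1502 downregulated genes in all, 8 to 18 further upregulated and 5 to 18 further downregulated genes, and 14 to 18 upregulated antioxidant genes and 826 to 1755 upregulated genes in all. The highest of each was without ox-LDL replicate 2. The number of downregulated genes in all was 436 without control replicate 4 and 437 without ox-LDL replicate 3, and the further genes lost calls by a similar factor without control replicate 1, 3 or 4 and without ox-LDL replicate 3 or 4. Without 3 libraries, ox-LDL replicate 2 and control replicates 1 and 4, there were 16 and 3 antioxidant genes, against 859 and 651 of all genes.

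Sign changes were seen only in genes that did not pass. Leaving out one library gave Prdx2 log2 fold changes from -0.53 to 0.14, above 0 without control replicate 1 and without ox-LDL replicates 1, 3, 4 and 5. It gave Prdx4 -0.78 to 0.14, above 0 without control replicate 1 and ox-LDL replicate 4, and Gpx4 -1.09 to 0.0229, above 0 without control replicate 1 and ox-LDL replicates 3, 4 and 5. It gave Sod1 -0.35 to 0.13, above 0 without control replicate 1 and ox-LDL replicates 3, 4 and 5, and Gsto1 -0.11 to 0.65, below 0 without ox-LDL replicate 2. Sod1 was also at 0.17 with the length trend removed and 0.14 with the replicate block as well.

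Deviations of same-numbered libraries from their group means correlated at 0.0238, -0.272, 0.443, -0.285 and 0.411, and control replicate 5 alone correlated best with its own number. Control replicates 1 and 4 correlated best with ox-LDL replicate 2 (0.463 and 0.489), and these 3 libraries share the tilt toward short genes. Because that tilt enters the correlations, they cannot decide whether replicate numbers pair the libraries. With a replicate block, 13 and 1 antioxidant genes and 885 and 549 of all genes passed. The lowest count of any of the 38 genes in a library was 15.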
